A study of Homo sapiens with 9 samples.

Results

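The genes considered here lie on human chromosome 15 within 5 Mb of B2M, the gene at which a dCas9-based fusion protein (ETR) was aimed. A gene was included when all its annotated exons lay on chromosome 15 and its span overlapped positions 39711487 to 49721256 of GRCh38, and B2M itself was left out. This took 316 of the 59653 genes in the count table, with no measured value used in the choice. RNA was sequenced from 9 libraries of K-562, a human chronic myeloid leukaemia line, all of one genotype, B2M tdTomato, named after a red fluorescent reporter protein. The 3 groups of 3 libraries were mock-treated cells, cells given mRNA for a tripartite ETR with a full-length gRNA against B2M, and cells given this ETR with a gRNA of 16 nt. The labels do not say what the mock treatment held, which protein domains the ETR carried, when RNA was taken, whether cells were sorted or whether the 3 libraries of a group came from 3 cultures. The p-values therefore measure the spread between these libraries. If the mock cells were not nucleofected, what nucleofection and what the ETR added cannot be told apart.

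Cas9 without nuclease activity (dCas9) binds DNA where a gRNA leads it and can carry domains that silence a promoter. Silent chromatin can extend along a chromosome in cis, from the site where it is started to neighbouring genes, until a boundary or an active promoter stops it. Genes that start close together on opposite strands, as PATL2 and B2M do, can share a stretch of promoter sequence. The distance, side and strand of each gene relative to B2M, on the plus strand at positions 44711487 to 44721256, were therefore the frame for the comparisons.

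The sequences of the shared stretch are shown because the nearest gene starts inside the window around the B2M start. RefSeq (GRCh38.p14) places the B2M start at 44711517 and starts of PATL2, on the minus strand, at 44711390 and 44711323, which are 127 and 194 bases before it, and at an inner position, 44676874. In the B2M window, chr15:44711267-44711566 on the plus strand, capitals mark the 126 bases between the nearest starts of the pair. In the window of the inner PATL2 start, chr15:44676825-44677124 on the minus strand, capitals mark the CG dinucleotides.
B2M and outer PATL2 starts: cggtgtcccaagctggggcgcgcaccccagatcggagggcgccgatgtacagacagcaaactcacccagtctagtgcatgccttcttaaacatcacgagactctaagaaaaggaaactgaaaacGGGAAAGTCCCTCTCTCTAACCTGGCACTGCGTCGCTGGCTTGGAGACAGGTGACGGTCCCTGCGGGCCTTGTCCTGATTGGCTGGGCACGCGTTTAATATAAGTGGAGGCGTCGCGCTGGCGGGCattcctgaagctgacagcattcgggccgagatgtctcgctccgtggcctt
PATL2 inner start: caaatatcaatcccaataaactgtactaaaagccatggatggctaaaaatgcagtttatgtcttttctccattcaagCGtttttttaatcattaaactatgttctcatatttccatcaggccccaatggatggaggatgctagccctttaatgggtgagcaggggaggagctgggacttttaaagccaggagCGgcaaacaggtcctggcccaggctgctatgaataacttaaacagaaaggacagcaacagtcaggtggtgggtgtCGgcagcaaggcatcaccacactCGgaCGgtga

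The B2M window held 22 CG dinucleotides, and 37.7% of the 35116 RefSeq promoter windows of this length hold at least as many. The inner PATL2 window held 5, and 33.7% of windows have at most that many. The letters CCAAT, searched on both strands, occurred in both windows and in 34.6% of all. These matches describe letters and are not measured binding. The count table does not separate transcripts from the outer and inner PATL2 starts.

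B2M itself went with the labels. It had 3681, 4304 and 3718 counts in mock, 309, 268 and 216 in the full-length group and 462, 714 and 423 in the 16-nt group. These are 139 ± 7.11, 9.71 ± 0.977 and 19.2 ± 2.96 CPM, counts scaled to library depth (SD, n = 3 each), with no overlap between groups, and log2 fold changes against mock of -3.84 (SE 0.12) and -2.85 (SE 0.11, edgeR adjusted p = 3.50e-11 and 1.08e-09). In bulk RNA, fewer cells with B2M transcripts and less RNA per cell cannot be told apart. Total counts ranged from 23763529 to 33260228 per library. The label calls the cells lymphoblasts, but the 9 erythroid K-562 markers summed to 1519 to 2038 CPM over all libraries, while 5 lymphocyte markers summed to 2.18 to 3.83 CPM with MS4A1 at 0. Summed CPM of 5 monocyte and granulocyte markers was 0.400 to 0.595 in mock, 0.756 to 0.877 in the full-length group and 0.775 to 1.48 in the 16-nt group, and its part in the results was not tested. Both ETR libraries numbered 3 stood apart on the first principal component (30.7 and 26.9 against -19.1 to 6.84 in the other 7), so values that rest on them are also given without them. This component rose with library number in every group, mock included. Mock libraries 1 to 3 stood at -19.1, -17.0 and 2.37. Libraries 1 and 2 stood at -18.4 and -0.327 in the full-length group and at -12.0 and 6.84 in the 16-nt group.

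Of the 316 genes, 108 had enough counts to be tested, 115 had some counts but fell under the filter, and 93 had no count in any library. The tested genes were 96 of 132 protein-coding genes, 9 of 97 long noncoding RNAs and 3 of 50 pseudogenes. None of 28 small RNA genes and none of 9 genes of unmatched type were tested. Genes under the filter had totals of at most 70 counts over all libraries, reached by GATM, which encodes a creatine synthesis enzyme, and their median total was 4. The 93 genes without a count give no measure of a fall. Together with the tested genes, the 115 under the filter were fitted in 2 alternatives, edgeR without a filter and DESeq2. With either gRNA, 0 of these 223 genes were called against mock. Only 40 of the 115 had a total of at least 10 counts. At such counts a fall could hardly be called, so the lack of calls says little about these genes. Lower coordinates than B2M held 87 of the tested genes and higher coordinates 21, and 60 were on the strand of B2M and 48 on the other. Exons of 66 tested genes overlap exons of another gene, and because the strand setting of the counting is not given in the sources used here, reads of such pairs may be shared or lost.

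Members differed widely in level in the mock libraries. Per kilobase of exon, PDIA3, a disulfide isomerase of the endoplasmic reticulum, stood highest in mock libraries at 97.0 ± 4.91 CPM per kb, followed by the calcium-binding protein gene CHP1 at 68.9 ± 4.90 and CHAC1, a glutathione-degrading enzyme gene of the stress response, at 64.4 ± 15.9. CHP1 and CHAC1 did not differ beyond their spread. SERF2 at 37.1 ± 9.03 and DUT, which encodes dUTPase, at 31.7 ± 2.75 CPM per kb also lay within their spread of each other. Close to B2M, SPG11 stood at 9.93 ± 0.911, TRIM69 at 1.16 ± 0.142 and PATL2 at 0.0262 ± 0.0267 CPM per kb (SD, n = 3 for each value).

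With the full-length gRNA, 0 of the 108 genes were called against mock by edgeR at an adjusted p under 0.05, while 0.00657% of all 15213 tested genes were, which is B2M alone. The smallest adjusted p among the 108 was 0.992. Log2 fold changes were above 0 in 52 genes and below 0 in 56, with a median of -0.0061, against 0.00021 over all tested genes and -0.0029 over 398 tested genes elsewhere on chromosome 15. From the 10th to the 90th percentile they ran from -0.15 to 0.26, against -0.17 to 0.27 over all genes. At an unadjusted p under 0.05 there was 1 gene below mock, EIF3J, where 1.18% of all tested genes were, and there were 3 above it, CATSPER2P1, PATL2 and TRIM69, where 1.68% of all were. PATL2 passed the filter on low counts only through its ETR libraries, so its place among the higher genes in each comparison with mock is a description. With a replicate block the counts were 4 below and 7 above (backgrounds 2.35% and 3.48%), and without full-length library 1 they were also 4 and 7 (backgrounds 4.67% and 4.83%). DESeq2 also called 0 of the members.

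The 16-nt gRNA gave the same number of calls, 0 of 108 by edgeR and by DESeq2, beside 0.00657% of all tested genes. Its smallest adjusted p among them was 0.978. There were 50 log2 fold changes above 0 and 58 below, with a median of -0.013, against 0.0019 over all tested genes and -0.0099 over chromosome 15 elsewhere. The 10th and 90th percentiles were -0.15 and 0.31, and -0.18 and 0.27 over all. At an unadjusted p under 0.05, TMEM62 was below mock (background 1.03%) and CATSPER2P1 and PATL2 were above it (background 1.45%). Both comparisons share the mock libraries, so their values are not independent of each other.

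Taking libraries one by one gave the same picture. The median deviation of the 108 genes from their mock mean on the log2 scale was 0.016, -0.0043 and -0.012 in the mock libraries. It was 0.020, 0.0091 and 0.0010 in the full-length group and 0.0043, -0.017 and -0.011 in the 16-nt group. Mock and ETR libraries overlapped in this measure. Summed over all 316 genes, the window held 4846 ± 50.4 CPM in mock, 4729 ± 91.3 CPM in the full-length group and 4783 ± 165 CPM in the 16-nt group (SD, n = 3 each), or 97.6% and 98.7% of the mock mean. In libraries 1 to 3 the sums were 4822, 4903 and 4811 CPM in mock, 4831, 4704 and 4654 CPM in the full-length group and 4972, 4706 and 4672 CPM in the 16-nt group. The full-length library numbered 1 lay within the mock range, and the 16-nt libraries lay on both sides of it. B2M stood at 6.98% and 13.8% of its mock mean in the same libraries.

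How large a fall the data would still allow was read from each gene's 95% confidence interval. With the full-length gRNA the interval lay above a 2-fold fall in 104 of the 108 genes (96.3%, against 94.5% of all tested genes) and above a 1.5-fold fall in 95 (88.0%, against 83.9%). A 2-fold fall was not excluded for SPINT1-AS1, AC020661.1, PLA2G4B and ELL3, whose totals over all libraries were 84 to 108 counts. With the 16-nt gRNA the interval lay above a 2-fold fall in 102 genes (94.4%, against 94.6% of all) and above a 1.5-fold fall in 93 (86.1%, against 83.8%). SQOR, with 97 counts, and AC044787.1, with 86, joined the 4 genes just named. All 51 genes whose log2 CPM averaged 5 or more had intervals above a 1.5-fold fall in both comparisons.

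**Figure D1:**
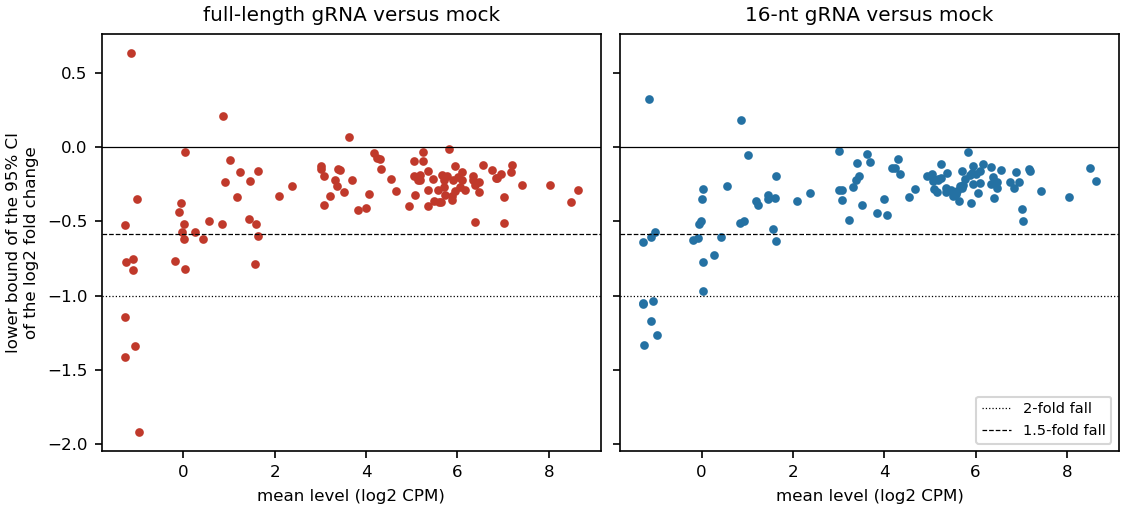
Lower bound of the 95% confidence interval of each log2 fold change (vertical axis) against the gene's mean level in log2 CPM (horizontal axis) for the 108 tested genes, in the full-length group (left) and the 16-nt group (right). Bounds below the dotted line, a 2-fold fall, belong to 4 and 6 genes, all at low levels.

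Among those 51 well-measured genes, small negative values were in the majority. With the full-length gRNA 37 of 51 (72.5%) had a log2 fold change below 0, against 58.6% of the 5938 genes of such levels in the whole table, and their median was -0.034 against -0.022. With the 16-nt gRNA it was 36 of 51 (70.6%) against 55.1%, with medians of -0.045 and -0.012. RLE scaling in place of TMM left both counts at 37 and 36. Without both ETR libraries numbered 3 the counts were 28 of 51 (54.9%, against 53.4% of all such genes) and 33 of 51 (64.7%, against 50.4%). None of the 51 genes was called, and the medians are no test of the group.

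The gene nearest to B2M, PATL2, had few counts. It lies on the minus strand at positions 44665732 to 44711316, 171 bases from the B2M span, and encodes a relative of the yeast Pat1 mRNA-binding proteins that is known from oocytes. It had 3, 0 and 7 counts in mock, 8, 12 and 25 in the full-length group and 10, 10 and 18 in the 16-nt group, sums of 10, 45 and 38. Each ETR library lay above each mock library. On the CPM scale these were levels of 0.125 ± 0.128, 0.582 ± 0.412 and 0.474 ± 0.200 (SD, n = 3 each).

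The log2 fold change of PATL2 was 2.20 in the full-length group (SE 0.73, 95% CI 0.64 to 3.76, unadjusted p = 0.00886, edgeR adjusted p = 0.992). For the 16-nt gRNA it was 1.93 (SE 0.75, 95% CI 0.33 to 3.53, unadjusted p = 0.0214, edgeR adjusted p = 0.978). PATL2 passed the filter through its ETR libraries, since no mock library reached 10 counts, so the filter favoured a higher value with the ETR. Without full-length library 3 its value was 1.5, and without mock library 3 it was 3.30. The values in the 16-nt group without mock library 2 and without mock library 3 were 1.28 and 3.03, and without 16-nt library 3 it was 1.54. The lowest adjusted p for PATL2 over all alternatives was 0.119 in the full-length group, from the edgeR fit without a filter, and 0.496 in the 16-nt group.

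On the other side of B2M, TRIM69 starts 10.1 kb beyond its end, at positions 44731367 to 44770208 of the plus strand, and encodes a tripartite-motif protein of the ubiquitin ligase kind. Its counts were 288, 368 and 254 in mock, 412, 373 and 317 in the full-length group and 344, 382 and 297 in the 16-nt group. Scaled to depth these were 10.8 ± 1.31, 13.5 ± 0.833 and 12.5 ± 1.42 CPM (SD, n = 3 each). The full-length libraries lay above all mock libraries, and the 16-nt libraries overlapped with mock. The log2 fold change was 0.33 (SE 0.12, unadjusted p = 0.0170, edgeR adjusted p = 0.992) in the full-length group and 0.22 (SE 0.12, edgeR adjusted p = 0.978) in the 16-nt group. Intervals ran from 0.068 to 0.59 and from -0.046 to 0.48. Without mock library 3 the values were 0.23 and 0.12.

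SPG11, whose product spatacsin serves lysosome recycling, lies 47.8 kb from B2M on the minus strand. Its counts were 3204, 3408 and 3247 in mock, 3542, 3456 and 2533 in the full-length group and 2814, 3698 and 2660 in the 16-nt group. The groups overlapped at 118 ± 10.8, 117 ± 9.06 and 111 ± 7.24 CPM (SD, n = 3 each). Its log2 fold changes were -0.014 (SE 0.09, 95% CI -0.21 to 0.18) and -0.078 (SE 0.09, 95% CI -0.27 to 0.12). The remaining gene within 0.1 Mb, the long noncoding RNA AC122108.2, had no count.

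Between 0.1 and 0.25 Mb from B2M, 4 genes were tested and their groups overlapped. EIF3J, a subunit gene of translation initiation factor eIF3 that lies 148 kb away on the plus strand, had counts of 2106, 2653 and 2909 in mock, 2441, 2131 and 1628 in the full-length group and 2224, 2846 and 1924 in the 16-nt group. Its log2 fold change in the full-length group was -0.26 (SE 0.11, 95% CI -0.51 to -0.023, unadjusted p = 0.0340, edgeR adjusted p = 0.992), and -0.10 (SE 0.11) in the 16-nt group. Without mock library 3 these values were -0.14 and 0.022, and without both ETR libraries numbered 3 they were -0.20 and -0.014. Exons of EIF3J overlap those of SPG11 on the other strand.

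EIF3J-DT, a long noncoding RNA that starts beside EIF3J on the minus strand, had log2 fold changes of 0.13 (SE 0.18) and 0.075 (SE 0.18), and ran from 0.033 to 0.27 in the full-length group when single libraries were left out. CTDSPL2, a phosphatase gene with which EIF3J-DT shares exon positions, had -0.044 (SE 0.10) and -0.083 (SE 0.10). SORD2P, a pseudogene of sorbitol dehydrogenase 107 kb beyond B2M, had counts of 75, 88 and 47 in mock, 80, 92 and 65 in the full-length group and 65, 80 and 74 in the 16-nt group. Its log2 fold changes were 0.22 (SE 0.21) and 0.10 (SE 0.21), and reads may be shared with its parent gene SORD. Without mock library 3, the lowest of the mock libraries, the values of SORD2P were 0.015 and -0.10. SORD itself, 304 kb from B2M, had -0.063 and -0.089 (SE 0.10 each), and GOLM2, a Golgi membrane protein gene 296 kb away, had 0.0017 and 0.0061 (SE 0.08 each).

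Binned by the distance between gene span and B2M span, the tested genes showed no bin with values near the fall of B2M. With the full-length gRNA the medians were 0.33 at 0 to 0.1 Mb (3 tested of 4 genes), 0.064 at 0.1 to 0.5 Mb (8 of 36), -0.086 at 0.5 to 1 Mb (11 of 42), -0.034 at 1 to 2 Mb (16 of 51) and 0.00038 at 2 to 5 Mb (70 of 183). For the 16-nt gRNA they were 0.22, 0.041, -0.033, -0.014 and -0.012 in the same order. Single libraries turned the sign of several of these medians. At 0.5 to 1 Mb the full-length median was 0.069 without mock library 2 and -0.13 without mock library 3, and the 16-nt median was 0.0091 without 16-nt library 3. Without 16-nt library 2, the 16-nt medians were -0.021 at 0.1 to 0.5 Mb and 0.0027 at 1 to 2 Mb. The full-length median at 2 to 5 Mb ran from -0.020 to 0.011. At 0 to 0.1 Mb the medians stayed above 0, from 0.23 to 0.38 and from 0.12 to 0.27. The nearest bin holds PATL2, TRIM69 and SPG11, and its median is the value of TRIM69. PATL2 passed the filter only through its ETR libraries, which favoured a high value in this bin. The medians of this bin are therefore a description, and SPG11 stood at -0.014 and -0.078. In single libraries, the median log2 deviation of the 8 genes at 0.1 to 0.5 Mb was -0.037, -0.025 and -0.030 in mock. It was 0.016, 0.034 and 0.086 in the full-length group and 0.050, 0.054 and 0.13 in the 16-nt group. ETR libraries lay slightly above mock in this measure, while the summed level of the bin was 94.0% and 96.4% of the mock mean. Mock libraries enter the mean they are measured from and ETR libraries do not. How often 8 other genes separate in this way was not tested. Across the 108 genes, Spearman's rho between distance and log2 fold change was -0.053 and -0.060, a description over genes that share the same libraries. Between distance and the size of the log2 fold change, regardless of sign, rho was 0.098 and -0.030. This size went down with the gene's level, with rho of -0.48 and -0.43.

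The summed level of each bin stayed close to mock. With the full-length and the 16-nt gRNA it was 101.6% and 96.8% of the mock mean at 0 to 0.1 Mb, 94.0% and 96.4% at 0.1 to 0.5 Mb, 96.1% and 104.5% at 0.5 to 1 Mb, 100.1% and 99.97% at 1 to 2 Mb and 97.8% and 96.8% at 2 to 5 Mb. In the nearest bin the sums were 140, 118 and 128 CPM in mock libraries, 139, 132 and 121 CPM in the full-length group and 130, 128 and 115 CPM in the 16-nt group, so that the groups overlapped. Most of these sums came from SPG11. In mock, SPG11 and PATL2 on the lower side held 118 of 129 CPM, and TRIM69 on the higher side held 10.8. The sum of the nearest bin therefore says little about PATL2 and TRIM69. At 1 to 2 Mb they were 604 ± 3.28, 604 ± 5.17 and 604 ± 9.79 CPM (SD, n = 3 each).

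Over the whole window, medians by side and by strand were also close to each other, but not in each bin. On the lower side the median log2 fold change was -0.0053 over 87 genes in the full-length group and -0.012 in the 16-nt group, and on the higher side -0.0070 and -0.033 over 21 genes. Between 1 and 2 Mb on the higher side, 8 genes had 2 counts in all and none was tested. Genes on the strand of B2M had medians of -0.030 and -0.033, with 24 and 22 of 60 values above 0. Those on the opposite strand had medians of 0.014 and 0.0088, with 28 of 48 values above 0 in both comparisons. Between 0.1 and 0.5 Mb, with each gRNA, 3 of 4 genes on the strand of B2M had values below 0. On the other strand 4 of 4 had values above 0. Medians in this bin were -0.053 and -0.086 on the strand of B2M, and 0.177 and 0.178 on the other. By side they were -0.021 and -0.038 over 4 genes at lower coordinates, and 0.177 and 0.178 over 4 at higher ones. Between 0.5 and 1 Mb, 3 and 4 of 7 genes on the strand of B2M were below 0, and 3 of 4 on the other with each gRNA. Between 1 and 2 Mb it was 7 of 8 with each gRNA on the strand of B2M, and 4 and 3 of 8 on the other. Between 2 and 5 Mb it was 23 and 24 of 40 on the strand of B2M, and 12 and 13 of 30 on the other. No difference between strands was tested.

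Counts of genes whose libraries did not overlap between groups were read against the whole table. With the full-length gRNA 2 of the 108 genes lay below mock in all libraries, AC020661.1 among them, where 3.52% of all tested genes did, and 5 lay above it, C15orf62, DLL4, CATSPER2P1, PATL2 and TRIM69, where 3.39% of all did. With the 16-nt gRNA 6 genes lay below mock, among them EIF2AK4, INAFM2, OIP5-AS1, LRRC57 and TMEM62, with a background of 4.8%. Another 4 lay above it, PAK6, CATSPER2P1, PATL2 and SHF, with a background of 4.41%. PATL2 was in both of the higher counts with a filter that favoured this. These shares are close to the backgrounds.

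DLL4, a Notch ligand gene, had 19, 22 and 20 counts in mock. It had 24, 30 and 39 in the full-length group and 22, 23 and 35 in the 16-nt group. These are log2 fold changes of 0.68 (SE 0.33) and 0.44 (SE 0.34). Falls of similar size also occurred at low counts. In the full-length group the lowest value was -0.56 on the strand of B2M and -0.74 on the opposite strand. Both belong to genes under a mean log2 CPM of 1, so the list of most negative values below leaves them out. Of the 108 full-length values, 56 were below 0 and 52 above. In the 16-nt group the lowest value was -0.33 on each strand.

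Farther from B2M, the smallest unadjusted p belonged to CATSPER2P1, a pseudogene of a sperm calcium channel subunit 964 kb away. It had 27, 47 and 34 counts in mock, 59, 54 and 51 in the full-length group and 50, 65 and 48 in the 16-nt group. The ETR libraries lay above all mock libraries, with log2 fold changes of 0.67 (SE 0.21, unadjusted p = 0.00675, edgeR adjusted p = 0.992) and 0.64 (SE 0.21, unadjusted p = 0.00878, edgeR adjusted p = 0.978). Without mock library 1 they were 0.57 and 0.54, and without mock library 2 they were 0.80 and 0.77. Its exons overlap those of PDIA3, the member with the highest level per kilobase, whose own values were -0.091 and -0.032 (SE 0.09 each), and its parent copy CATSPER2 had -0.088 (SE 0.35) and -0.23 (SE 0.35).

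Among genes whose log2 CPM averaged 1 or more, the most negative values in the full-length group belonged to FAM227B (-0.38, SE 0.19), EIF3J (-0.26) and COPS2 (-0.22, SE 0.14), a COP9 signalosome subunit gene. COPS2 had counts of 3622, 4487 and 4001 in mock and 4370, 3519 and 2252 in the full-length group, and without full-length library 3 its value was -0.068. Among 16-nt values the most negative were TMEM62 (-0.25, SE 0.11, unadjusted p = 0.0472), LRRC57 (-0.22, SE 0.11) and COPS2 (-0.21, SE 0.14). TMEM62 had 259, 322 and 258 counts in mock and 208, 275 and 206 in the 16-nt group, and the 2 groups did not overlap in CPM. EIF3J lies 148 kb from B2M and the other 4 genes 1.53 to 4.61 Mb from it.

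In the same range of levels, a log2 CPM of 1 or more on average, the most positive values with either gRNA belonged to JMJD7-PLA2G4B (0.86 and 0.83, SE 0.48 each), PAK6 (0.50 and 0.54, SE 0.28 each) and HYPK (0.43 and 0.59, SE 0.44 each), which encodes a huntingtin-interacting subunit of an N-terminal acetylation complex. Exons of all 3 overlap those of other genes. JMJD7-PLA2G4B, a readthrough transcript, had 44, 43 and 80 counts in mock, 47, 94 and 146 in the full-length group and 30, 123 and 142 in the 16-nt group, so that the libraries numbered 1 of the ETR groups lay within and under the mock range. It was called for the 6 ETR libraries against mock in the fit without a filter on low counts (edgeR adjusted p = 0.0223), and in none of the other fits. PAK6, a kinase gene, had 38, 49 and 42 counts in mock, 41, 88 and 48 in the full-length group and 46, 60 and 75 in the 16-nt group. Without full-length library 2 its full-length value was 0.17. Single libraries also moved the values of the other 2 genes. JMJD7-PLA2G4B stood at 0.29 without full-length library 3 and at 1.23 without mock library 3 in the full-length group, and ran from 0.38 to 1.22 in the 16-nt group. HYPK stood at 0.031 without full-length library 3 and at 1.03 without mock library 3 in the full-length group, and ran from 0.23 to 1.19 in the 16-nt group.

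Grouped by what their products do, 0 genes of any group were called, beside 0.00657% of all tested genes in each comparison. As background for the counts below 0, 49.9% and 49.4% of all tested genes had such values with the full-length and the 16-nt gRNA. Among genes with a mean log2 CPM of 5 or more it was 58.6% and 55.1%, and 72.5% and 70.6% of the 51 members at that level. No functional group was tested against these shares. Mitosis and centrosome genes, among them the checkpoint kinase gene BUB1B and the centromere factor gene OIP5, were all 10 tested, and 7 and 8 of them had values below 0 in the full-length and the 16-nt group (medians -0.047 and -0.030). BUB1B stood at -0.11 and -0.046 (SE 0.10 each) and OIP5 at 0.052 and 0.024 (SE 0.09 each). Of 5 DNA repair and replication genes, 4 and 2 had values below 0, with DUT at -0.0070 and 0.035 (SE 0.09 each). RPAP1, which was listed with them but is known for a role in RNA polymerase II assembly and transcription, stood at 0.071 and 0.033 (SE 0.09 each).

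Transcription and chromatin genes had 6 of 9 values below 0 with each gRNA (medians -0.012 and -0.034), and EID1, an inhibitor of histone acetyltransferases, stood at -0.15 and 0.018 (SE 0.10 each). Genes of protein synthesis and mRNA had 7 of 12 below 0 with each (medians -0.020 and -0.058), a list that holds PATL2, EIF3J, PDIA3 and SERF2. SERF2 stood at 0.0048 and 0.23 (SE 0.17 each). Membrane traffic and lysosome genes had 7 of 10 below 0 with each (medians -0.045 and -0.036). Among these the tethering subunit gene VPS18 stood at -0.11 and -0.10 (SE 0.12 each), and RMDN3, a gene for contacts between mitochondria and the endoplasmic reticulum, at -0.068 and 0.11 (SE 0.10 each).

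Metabolism and mitochondria genes had 7 of 11 values below 0 with each gRNA (medians -0.016 and -0.070), and 1 of the 12 listed, GATM, was not tested. NDUFAF1, an assembly factor gene of respiratory complex I, stood at -0.19 and 0.0094 (SE 0.09 each), and CHAC1 at -0.016 and -0.093 (SE 0.15 each). Receptors, ligands and signalling genes had 7 and 8 of 11 values above 0 (medians 0.068 and 0.13), with CHP1 at -0.034 and -0.12 (SE 0.10 each) and the receptor kinase gene TYRO3 at -0.043 and 0.018 (SE 0.08 each). SHF, an adapter protein gene, stood at 0.13 and 0.25 (SE 0.13 each).

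Of the ubiquitin system, UBR1, an N-end rule ligase gene, stood at -0.095 and -0.080 (SE 0.09 each) beside TRIM69. CDAN1, the gene mutated in a congenital dyserythropoietic anaemia, was the 1 tested of 3 red cell genes, with counts of 1232, 1856 and 1370 in mock, 1546, 1792 and 1471 in the full-length group and 1410, 1867 and 1517 in the 16-nt group. Its values were 0.17 and 0.15 (SE 0.09 each). The stretch from DUOX2 to SLC12A1, with oxidase and transporter genes, had 1 of 8 genes tested, the zinc transporter gene SLC30A4 at -0.12 and -0.085 (SE 0.13 each). DUOX2 had 10 counts over all libraries and DUOX1 had 4.

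The gRNA groups were also compared with each other. B2M was higher in the 16-nt group by 0.99 on the log2 scale (SE 0.12, edgeR adjusted p = 0.00580), and its adjusted p was 0.122 without full-length library 2 and 0.130 in a fit of these 2 groups alone. None of the 108 genes was called, beside 0.00657% of all tested genes, and the smallest adjusted p was 1.00. Of their values, 49 were above 0 and 59 below, with a median of -0.019. At an unadjusted p under 0.05, 0 genes were lower (background 0.493%) and 1 was higher (background 0.434%). This was NDUFAF1, at 0.20 (95% CI 0.0013 to 0.40, unadjusted p = 0.0487), with counts of 765, 742 and 736 in the full-length group and 815, 1002 and 797 in the 16-nt group. EID1 (0.17), RMDN3 (0.18) and CCDC32 (-0.14) came next by p. A fit of these 2 groups alone with a replicate block tested 106 members. It gave 0 lower and 5 higher at this threshold (backgrounds 2.16% and 2.74%), and called 0. PATL2 and TRIM69 had values of -0.27 (95% CI -1.52 to 0.97) and -0.11 (95% CI -0.37 to 0.15). FAM227B was the 1 gene above in all 16-nt libraries (background 2.8%), and 0 lay below (background 2.78%).

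When the 6 ETR libraries were set against mock together, 0 of the 108 genes were called, beside 0.00657% of all tested genes, with a smallest adjusted p of 0.928. At an unadjusted p under 0.05, 0 genes were lower (background 1.33%) and 5 were higher (background 2.1%), CATSPER2P1, PATL2, TRIM69, CDAN1 and PAK6. Without full-length library 1 there were 5 lower and 7 higher (backgrounds 4.61% and 4.95%). CATSPER2P1 lay above mock in all 6 ETR libraries (background 1.01%), as did PATL2, which entered the tested genes through those libraries. Of the 108 genes, 1 lay below mock in all 6 (background 0.947%). The median over the 108 genes was -0.0093.

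At the borders of the window, the last gene inside on the lower side was FSIP1, 4.93 Mb from B2M with 10 counts in all, and the first outside was THBS1, 5.11 Mb away with 4 counts. On the higher side DTWD1, 4.90 Mb away, was the last inside, with log2 fold changes of -0.11 and -0.048. AC025040.2, 5.08 Mb away, was the first outside and had no count. The nearest tested genes beyond the borders, AC013652.1 and ATP8B4, had values of 0.72 and -0.18 in the full-length group and -0.047 and -0.15 in the 16-nt group, and EIF2AK4, the outermost tested gene inside on the lower side, had -0.062 and -0.089.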

How the data were processed

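The values are the read counts by gene that the authors deposited for the 9 libraries, not normalized. They were made with STAR 2.7.6a, Subread 2.0.1 with featureCounts, DESeq2 1.30.0, Trim Galore 0.6.6, bcl2fastq 2.20 and FastQC 0.11.9, on GRCh38, per the submitters' processing notes. Not given in the sources used here: annotation release, strand setting, handling of multiply mapped reads. Gene coordinates, strands and exon lengths are those of the deposited table, and gene types came from GENCODE 29 (302 genes) or RefSeq (5), with 9 unmatched. A RefSeq promoter window was found for 113 of the 316 genes.

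All genes were fitted together with edgeR 4.0.16 in R 4.3.3 (quasi-likelihood F test, two-sided, TMM scaling, filterByExpr with a minimum count of 10, a term per group, all 9 libraries). Benjamini-Hochberg adjustment covered all 15213 tested genes, and genes with an adjusted p under 0.05 were called. CPM used TMM-scaled library sizes. DESeq2 1.42.0 was an alternative. The script was tested on simulated data. Levels per kilobase divide CPM by exon length. Within groups, pairs of libraries differed by a chi-square per degree of freedom of 12.0 to 31.0, so each counted as 1 replicate.

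Groups and replicate numbers came from the sample titles. Deviations of same-numbered libraries correlated at 0.196 to 0.572 between the gRNA groups, at 0.033 to 0.209 between mock and full-length and at -0.191 to 0.197 between mock and 16-nt. Libraries of different number correlated at -0.461 to 0.059 between the gRNA groups, but mock library 2 and 16-nt library 1 reached 0.288. Deviations from a mean over 3 libraries are not independent of each other. That the numbers pair the gRNA groups is thus only a hint from the data. The main fit left such pairing out, and fits with a replicate block were alternatives.

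Named genes were those tested within 0.25 Mb, those with the smallest p or the most extreme log2 fold changes, and those with the highest levels per kilobase in each functional list. Other names were added after their values were seen. One member is counted in the totals but not reported here. The members and lists were chosen with earlier results of these data known.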

Additional observations from a re-analysis of the deposited data

How the results depend on the processing

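The count of called members stayed at 0 under the alternatives run (DESeq2, RLE scaling, no filter or a 1 CPM filter, each library left out in turn, both ETR libraries numbered 3 left out, fits of the compared groups alone and genes without overlapping exons), except that the 6 ETR libraries against mock gave 1, JMJD7-PLA2G4B, without a filter. With the replicate block it was 0 in each comparison and the medians were -0.0050 in the full-length group, -0.012 in the 16-nt group, -0.018 between the gRNA groups (-0.020 in a fit of those groups alone) and -0.0088 for both ETR groups, so the pairing changed no call. The median log2 fold change ran from -0.018 to 0.0064 when single libraries were left out in the full-length group, and was 0.0081 without both ETR libraries numbered 3. With the 16-nt gRNA it ran from -0.034 to -0.0048, and was 0.00 with DESeq2, which tested 223 members, and 0.0043 over the 42 members without overlapping exons. Between the gRNA groups it ran from -0.035 to 0.0037, and was -0.0048 without both libraries numbered 3. For both ETR groups it ran from -0.027 to -0.011, and was -0.029 without overlapping exons. Signs of values near 0 turned when single libraries were left out: CTDSPL2 ran from -0.13 to 0.058 in the full-length group and from -0.16 to 0.019 in the 16-nt group, SPG11 from -0.081 to 0.051 in the full-length group, and in the 16-nt group EIF3J from -0.16 to 0.022, EIF3J-DT from -0.028 to 0.21 and SORD2P from -0.10 to 0.25. Without both ETR libraries numbered 3, CTDSPL2 stood at 0.033 and SPG11 at 0.046 in the full-length group. The cause was not tested. PATL2 was under the 1 CPM filter and has no value there. At an unadjusted p under 0.05, edgeR without a filter gave 3 lower and 9 higher members in the full-length group (backgrounds 1.05% and 2.08%), 2 and 6 in the 16-nt group (1.15% and 2.14%) and 4 and 8 for both ETR groups (1.73% and 2.42%). Without mock library 3 the 16-nt counts were 4 and 5 (2.08% and 2.84%), and with the replicate block those for both ETR groups were 1 and 8 (3.04% and 4.50%). The genes for which a 2-fold fall was not excluded had 84 to 108 counts over all libraries.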
